A study of Mus musculus with 6 samples.

Results

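Pigment cell genes were examined in craniofacial tissue from mouse embryos at E12.5. The 10 genes were chosen by name, as genes of melanoblasts and of the pigment cells of the eye, and each had exactly 1 entry among the 38553 genes of the deposited table. They comprise *Mitf*, the transcription factor of the lineage, the pigment enzymes *Tyr*, *Tyrp1* and *Dct*, the melanosome proteins *Mlana*, *Slc45a2* and *Oca2*, the receptors *Kit* and *Ednrb*, and the KIT ligand *Kitl*. RNA-Seq was performed on 3 control embryos with the genotype *Rbfox2* flox/flox and on 3 *Rbfox2* mutant embryos with the genotype *Pax3*Cre/+:*Rbfox2* flox/flox. Both groups thus carry a pair of floxed *Rbfox2* alleles, and only the mutants carry Cre. *Pax3*Cre is a knock-in that is active in the neural crest and also in paraxial mesoderm and somite derivatives, and the mice were kept on mixed genetic backgrounds. The *Rbfox2* deletion, Cre and the insertion in *Pax3* come together in the mutants, so their effects cannot be told apart. The values are FPKM, fragments mapped to a gene scaled by gene length and by library size, so levels of genes can be compared within a sample. Their sum over all genes differed between samples, as given below, and the main fit scaled them no further. Comparisons between samples therefore rest on the deposited scaling, with other scalings used as alternatives. Since the tissue was sequenced in bulk, fewer pigment cells and less RNA per pigment cell cannot be told apart.

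Melanoblasts arise from the neural crest, migrate under the skin ectoderm and depend on KIT and its ligand and on endothelin 3 and its receptor EDNRB. PAX3 and SOX10 activate *Mitf* in these cells. The retinal pigment epithelium of the eye forms from the optic cup, not from the neural crest, but also uses MITF and makes the same pigment enzymes. Tyrosinase, encoded by *Tyr*, carries out the first step of melanin synthesis, and the related proteins TYRP1 and DCT act on later intermediates. None of the 10 genes passed the test between control and mutant tissue, and neither did any other gene tested, *Rbfox2* and *Pax3* included. *Rbfox2*, the deleted gene, and *Pax3*, the gene that holds the Cre insertion, were lower in every mutant sample than in every control sample.

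MITF binds a sequence known as the M-box, whose core is TCATGTG. It is shown here because *Tyr*, *Tyrp1* and *Dct* share it upstream of their starts. Their differences between mutant and control did not pass the test, and no link to the matches was tested. The 10 genes were chosen by name as pigment genes, so the share of matches among them is no test of the motif. RefSeq windows on GRCm38.p6 from 250 bases before to 50 bases after the transcript start were searched on both strands. Of the 10 genes, 8 were in the table with 11 windows. TCATGTG or its reverse complement CACATGA was found in 3 of these 11 windows, 1 each of 3 genes, against 3.77% of the 32851 windows of all genes. The shorter core CATGTG, which lies within TCATGTG, was found in 4 of the 11 windows, in the same 3 genes and in *Oca2*, against 14.2% of all windows, and CACGTG in 0 of the 11, against 7.15% of all windows. A match is a stretch of letters and not a measured binding site. Each site is given 5′ to 3′ on the strand of its gene, with the match in capitals.
*Tyr* on the minus strand at chr7:87493517-87493545, where the match lies 22 to 16 bases before the start: gaaaaagttagTCATGTGctttgcagaag
*Tyrp1* on the plus strand at chr4:80834155-80834183, 47 to 41 bases before the RefSeq start and inside an exon of the longer GENCODE gene model: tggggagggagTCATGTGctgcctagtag
*Dct* on the minus strand at chr14:118052380-118052408, 151 to 145 bases before the start: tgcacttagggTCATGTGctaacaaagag
*Dct*, a second match in reverse orientation at chr14:118052461-118052489, 232 to 226 bases before the start: cttggctgggaCACATGAgcccaataaag

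The libraries differed in ways that bear on these genes. Replicate 1 of the controls and of the mutants lay away from the rest, at -40.0 and -36.6 on the first principal component of 17826 genes against 15.4 to 22.3 for the other samples, and this component carried 33.8% of the variance. Averaged over *Uty*, *Kdm5d*, *Ddx3y* and *Eif2s3y*, which are Y-linked, the FPKM was 14.4 and 13.9 in mutant replicates 1 and 2 and at most 0.0541 in the other samples. No control had Y-linked expression, and mutant replicate 3 was the only mutant without it. A fit with Y-linked expression as a covariate therefore sets mainly mutant replicate 3 against the controls. The FPKM summed over all genes to between 528123 and 590174 per sample. Markers of cranial mesenchyme marked the tissue in every sample, with a summed FPKM of 8 genes of 386 to 426 in controls and 340 to 427 in mutants. All 6 libraries held RNA of the eye as well. The 9 lens genes summed to 119 to 239 FPKM in controls and 94.9 to 292 in mutants, and *Cryaa*, a lens crystallin, was at 41.3 or above in each sample. The 9 markers of the neural retina and optic cup summed to 62.3 to 142 in controls and 99.3 to 122 in mutants. Of 8 markers of the retinal pigment epithelium, *Rpe65* was listed at 0 in every sample and *Rgr* and *Lrat* stayed under 0.1. *Rlbp1* was at 2.7 to 5.87, *Best1* at 0.437 to 1.0 and *Slc6a20a* at 0.066 to 0.28. *Otx2*, also among the choroid plexus markers, was at 9.84 to 21.4. *Serpinf1*, which other tissues express as well, made up most of the sum of all 8, which was 67.9 to 108 in controls and 61.2 to 113 in mutants. The contribution of melanoblasts and of eye pigment cells to the genes below cannot be told apart.

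*Rbfox2* (ENSMUSG00000033565, chromosome 15 of GRCm38) had FPKM of 58.4, 65.0 and 61.3 in control replicates 1 to 3 and 38.1, 36.3 and 34.3 in mutant replicates 1 to 3. The groups did not overlap, and the mutant mean was 58.8% of the control mean. The difference on the log2(FPKM + 0.1) scale was -0.76 (standard error 0.080, unadjusted p = 2.45e-05 and adjusted p = 0.218 from limma). The unadjusted p of *Rbfox2* was under 0.05 in 18 of 18 alternatives. *Pax3* (ENSMUSG00000004872, chromosome 1, 78101267 to 78197134, minus strand) had FPKM of 8.83, 11.9 and 11.1 in the controls, compared with 8.62, 7.59 and 8.36 in the mutants. Every mutant value lay below every control value, with means of 10.6 ± 1.59 and 8.19 ± 0.536 (SD, n = 3 each) and a mutant mean at 77.1% of the control mean. The log2 difference of *Pax3* was -0.36 (standard error 0.13), which had an unadjusted p of 0.0276 and an adjusted p of 1.0 in limma. This difference was -0.04 for replicate 1 and -0.52 in replicates 2 and 3. The exact permutation test gave a two-sided p of 0.10 for both genes, the smallest that 3 samples against 3 allow.

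**Figure D1:**
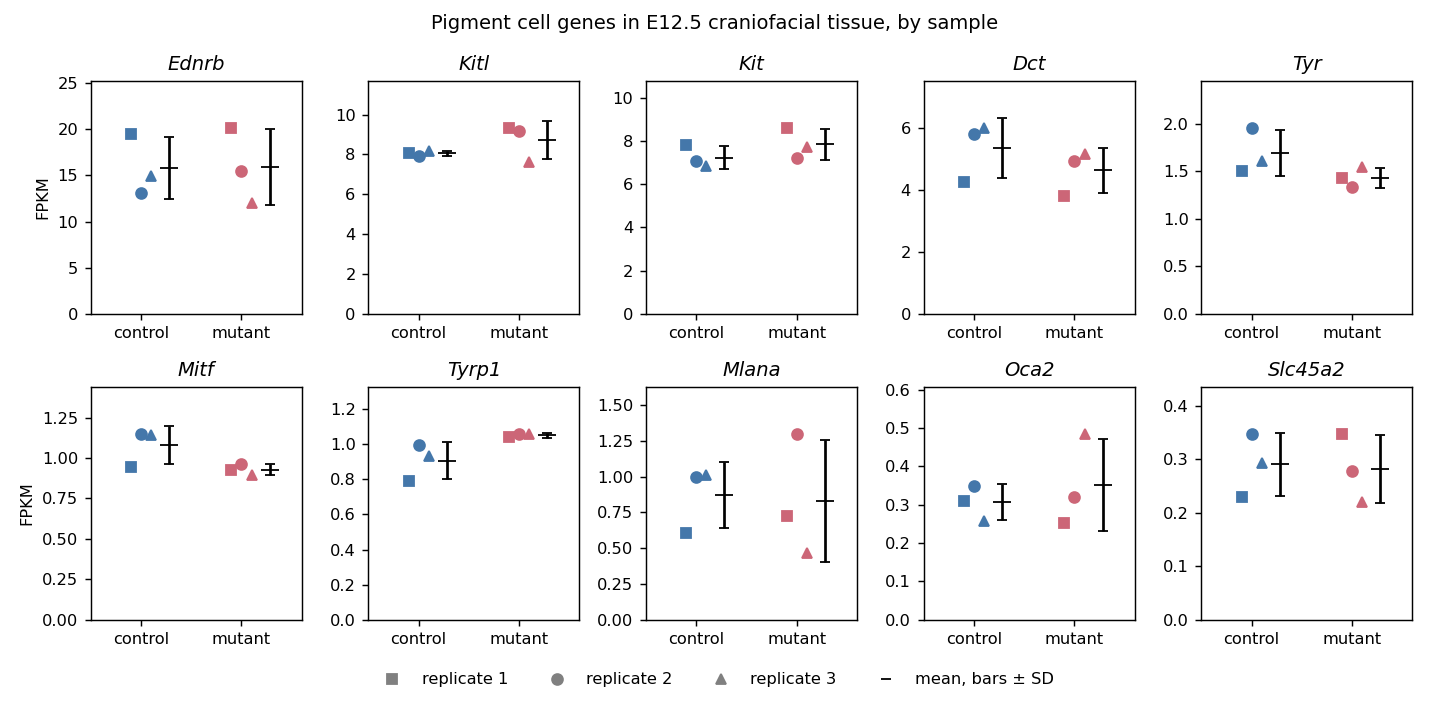
FPKM of the 10 pigment cell genes in each sample, with 1 panel per gene and an axis from 0, in order of mean level. Symbols give the replicate number and the black dash and bars give the mean ± SD of 3 samples. Control and mutant values overlap in every panel except that of *Tyrp1*, where the mutants sit at 1.04 to 1.06 and the controls at 0.793 to 0.995.

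The lineage genes were expressed at low levels, and the receptors and the ligand at higher ones. Ordered by the mean FPKM of the 6 samples, *Ednrb* was first at 15.8 ± 3.37 (SD, n = 6), followed by *Kitl* at 8.38 ± 0.715, *Kit* at 7.54 ± 0.654 and *Dct* at 5.0 ± 0.868. *Tyr* came next at 1.56 ± 0.217, then *Mitf* at 1.0 ± 0.113, *Tyrp1* at 0.979 ± 0.103, *Mlana* at 0.852 ± 0.308, *Oca2* at 0.329 ± 0.0853 and *Slc45a2* at 0.287 ± 0.0548. The ranges of *Ednrb* and *Kitl*, of *Kit* and *Dct*, of *Dct* and *Tyr* and of *Tyr* and *Mitf* were separate. *Kitl* and *Kit* overlapped, as did each neighbouring pair from *Mitf* down to *Slc45a2*, so the order within these is not beyond the spread of the samples. *Ednrb* stood at percentile 65.9 of the genes tested by mean FPKM, *Dct* at percentile 42.2 and *Slc45a2* at percentile 10.6. *Dct* is therefore the pigment enzyme with the highest level here, ahead of *Tyr* in 6 of 6 samples.

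To compare mutant with control tissue, all 17826 genes with a mean FPKM over 0.1 across the 6 samples were fitted with limma. All 10 pigment genes were among them. With an adjusted p under 0.05, 0 of the 10 genes and 0 of all genes (0.0%) were called. At an unadjusted p under 0.05 it was 0 of the 10 against 442 of all genes, or 2.48%, split into 180 with a higher level (1.01%) and 262 with a lower level (1.47%) in mutants. Of the 10, 4 had a higher and 6 a lower fitted mean in the mutants, and the median log2 difference was -0.020, against -0.00060 over all genes. The median size of the difference was 0.13, against 0.088 over all genes. The 95% intervals of the fold change, on the scale of FPKM + 0.1 and for each gene alone, ran from 0.503 at the lowest to 1.72 at the highest. These intervals were wider with Y-linked expression as a covariate, where the standard error of *Mlana* was 0.44 in place of 0.36 and that of *Oca2* 0.36 in place of 0.28. The added 0.1 understates the fold change of genes with low FPKM. In replicates 2 and 3 alone, and with the replicate number as a block, 0 of the 10 genes had an unadjusted p under 0.05, while over all genes 1641 and 1054 did.

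**Figure D2:**
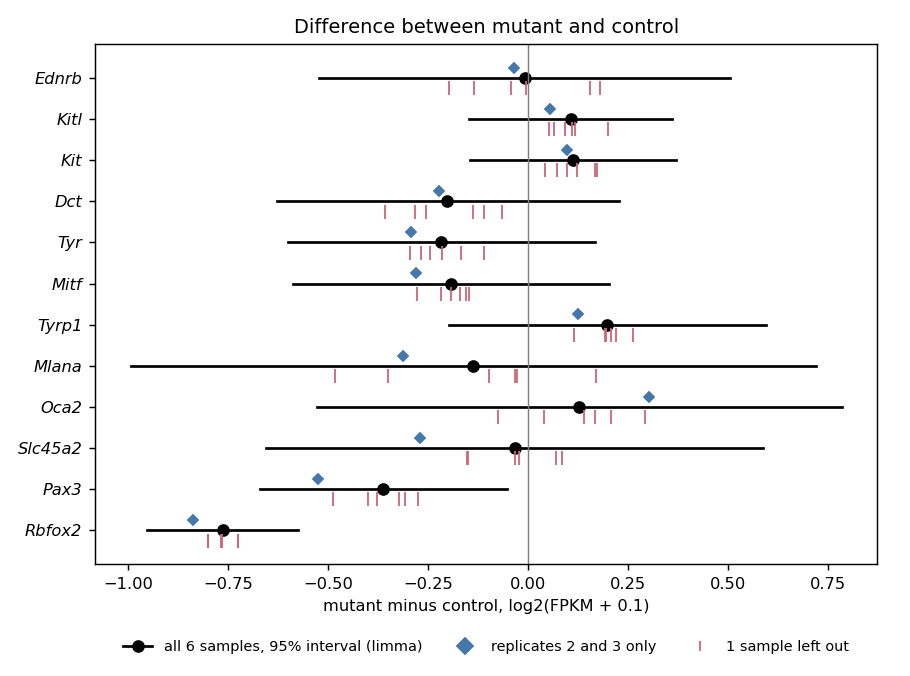
Difference between mutant and control on the log2(FPKM + 0.1) scale for the 10 pigment cell genes, *Pax3* and *Rbfox2*. Black points and lines give the limma estimate and its 95% interval, blue diamonds the estimate from replicates 2 and 3 only, and red ticks the estimates with 1 sample left out. The intervals of the 10 pigment genes include 0, that of *Pax3* runs from -0.67 to -0.053 and that of *Rbfox2* from -0.95 to -0.58.

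*Mitf* (ENSMUSG00000035158, chromosome 6, 97807052 to 98021349, plus strand) encodes the factor that drives the pigment genes. Its FPKM was 0.942, 1.15 and 1.14 in the controls, compared with 0.927, 0.960 and 0.894 in the mutants. The groups overlapped only because control replicate 1 lay below mutant replicate 2. The log2 difference was -0.19 (standard error 0.17, unadjusted p = 0.289 and adjusted p = 1.0 from limma), and it was -0.02, -0.24 and -0.32 in replicates 1, 2 and 3. *Mitf* is known for several promoters, of which one serves melanocytes and others the retinal pigment epithelium and other cells. GENCODE lists 8 transcripts with 7 starts, and the FPKM is 1 value for all of them.

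*Tyr* (ENSMUSG00000004651, chromosome 7, 87424771 to 87493512, minus strand) had FPKM of 1.5, 1.96 and 1.61 in the controls, compared with 1.43, 1.33 and 1.54 in the mutants. Mutant replicate 3 was above control replicate 1, so the groups overlapped. The log2 difference was -0.22, with a standard error of 0.16 and an adjusted p of 1.0 in limma. It was largest in replicate 2, at -0.53, against -0.06 in replicates 1 and 3. Without control replicate 2 it was -0.11.

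*Tyrp1* (ENSMUSG00000005994, chromosome 4, 80834123 to 80851719, plus strand) had FPKM of 0.793, 0.995 and 0.933 in the controls, compared with 1.04, 1.06 and 1.06 in the mutants. It was the only one of the 10 genes whose groups did not overlap. Over all genes tested, 3.03% had every mutant value above every control value and 3.52% had every one below. The means were 0.907 ± 0.103 and 1.05 ± 0.0137 (SD, n = 3 each), and the log2 difference was 0.20 (standard error 0.17, unadjusted p = 0.276 and adjusted p = 1.0 from limma). The exact permutation test gave p = 0.10, two-sided, the smallest possible. The difference was 0.35, 0.09 and 0.16 in replicates 1, 2 and 3.

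*Dct* (ENSMUSG00000022129, chromosome 14, 118012790 to 118052244, minus strand), an early marker of melanoblasts, had FPKM of 4.25, 5.81 and 6.03 in the controls, compared with 3.80, 4.96 and 5.17 in the mutants. The mutant was the lower one in each replicate number, at -0.16, -0.22 and -0.22 on the log2 scale, although the groups overlapped, since control replicate 1 lay below mutant replicates 2 and 3. The log2 difference was -0.20 with a standard error of 0.18 (unadjusted p = 0.305 from limma). With the replicate number as a block the standard error was 0.092 and the unadjusted p was 0.0758 (adjusted p = 0.837 from limma). Samples of the same number are not known to be pairs. With Y-linked expression as a covariate the difference was -0.034.

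The fitted differences of the enzymes thus had both signs, and their ratios within a sample were compared after the values had been seen. The ratio of *Tyrp1* to *Tyr* was 0.530, 0.508 and 0.581 in the controls, compared with 0.726, 0.801 and 0.686 in the mutants. The ratio of *Mitf* to *Tyrp1* was 1.19, 1.16 and 1.22 in the controls, compared with 0.894, 0.903 and 0.846 in the mutants. That of *Dct* to *Tyrp1* was 5.35, 5.84 and 6.47 in the controls, compared with 3.66, 4.66 and 4.89 in the mutants. In each of these the groups were apart, and all 3 ratios contain *Tyrp1*. They are 3 of the 45 ratios among the 10 genes, while 7.23% of all pairs of the genes with values above 0 in each sample have ratios that do not overlap, so the count of 3 is close to the background.

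*Mlana* (ENSMUSG00000024806, chromosome 19, 29697824 to 29708634, plus strand), which encodes a melanosome protein, varied most. Its FPKM was 0.608, 1.0 and 1.01 in the controls, compared with 0.723, 1.30 and 0.467 in the mutants. Mutant replicates 2 and 3 held the highest and the lowest value of the 6 samples, which is a 2.78-fold range. The log2 difference of -0.14 (standard error 0.36, adjusted p = 1.0 from limma) became 0.17 without mutant replicate 3. With Y-linked expression as a covariate, where mutant replicate 3 mainly stands for the mutants, it was -0.78 (standard error 0.44).

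*Oca2* (ENSMUSG00000030450, chromosome 7, 56239760 to 56536518, plus strand) and *Slc45a2* (ENSMUSG00000022243, chromosome 15, 11000721 to 11029233, plus strand) encode transporters of the melanosome that are mutated in forms of albinism. *Oca2* had FPKM of 0.310, 0.350 and 0.257 in the controls, compared with 0.252, 0.319 and 0.485 in the mutants. *Slc45a2* had 0.230, 0.348 and 0.294 in the controls, compared with 0.347, 0.278 and 0.221 in the mutants. Among the 6 samples, mutant replicate 3 held the top value of *Oca2* and the lowest for *Slc45a2* and *Mlana*. The log2 differences were 0.13 (standard error 0.28) for *Oca2* and -0.033 (standard error 0.26) for *Slc45a2*, and both changed sign without mutant replicate 3. With Y-linked expression as a covariate they were 0.55 (standard error 0.36) and -0.29 (standard error 0.38).

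*Kit* (ENSMUSG00000005672, chromosome 5, 75574916 to 75656722, plus strand) encodes the receptor tyrosine kinase of melanoblasts, which blood progenitors, mast cells and some neurons use as well. Its FPKM was 7.81, 7.07 and 6.84 in the controls, compared with 8.63, 7.20 and 7.71 in the mutants. The mutant was higher in each replicate number, by 0.14, 0.03 and 0.17 on the log2 scale, and the groups overlapped. The log2 difference was 0.11 (standard error 0.11, 95% interval -0.15 to 0.37, adjusted p = 1.0 from limma).

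*Kitl* (ENSMUSG00000019966, chromosome 10, 100015630 to 100100416, plus strand), the ligand of KIT made by the surrounding skin and mesenchyme, had FPKM of 8.08, 7.90 and 8.16 in the controls, compared with 9.35, 9.19 and 7.6 in the mutants. The controls had an SD of 1.66% of their mean, and the mutants lay on both sides of them. The log2 difference was 0.11 (standard error 0.11) and turned to -0.088 when Y-linked expression was added as a covariate. The mutant with the low value, replicate 3, is the only mutant without Y-linked expression, which no control had either. Whether this expression bears on the value was not tested.

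*Ednrb* (ENSMUSG00000022122, chromosome 14, 103814625 to 103844402, minus strand), the endothelin receptor, is also expressed in glial precursors and neural progenitors. It had FPKM of 19.5, 13.1 and 14.9 in the controls, compared with 20.2, 15.5 and 12 in the mutants. The group means were 15.8 ± 3.34 and 15.9 ± 4.15 (SD, n = 3 each), and the log2 difference was -0.0071 (standard error 0.22, 95% interval -0.52 to 0.51). The covariate of Y-linked expression moved it to -0.39 (standard error 0.27).

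**Figure D3:**
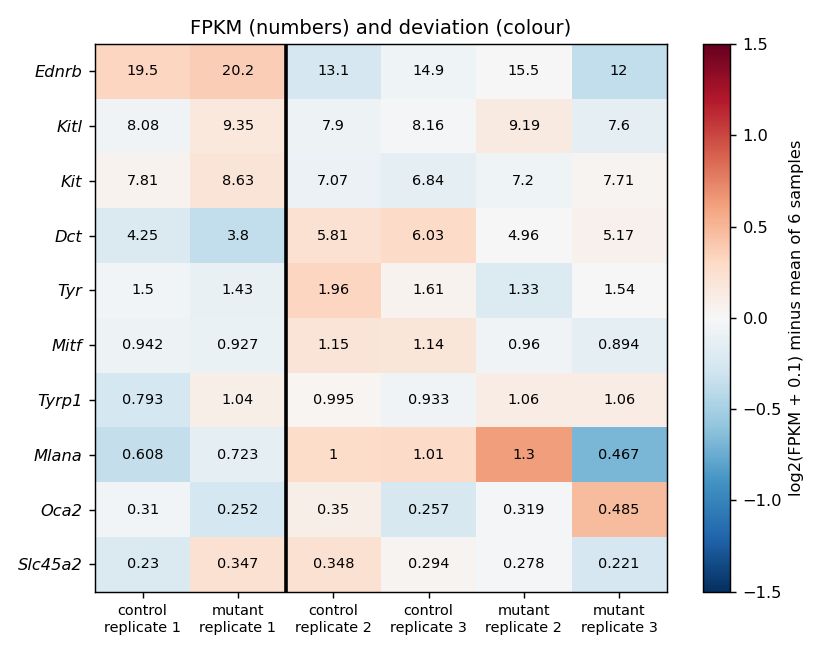
FPKM of the 10 genes in each sample (numbers), coloured by the deviation from the mean of the gene over the 6 samples on the log2(FPKM + 0.1) scale. The first replicates stand left of the black line, where *Ednrb* is at 19.5 and 20.2 against 12 to 15.5 in the other samples and *Dct* at 3.80 and 4.25 against 4.96 to 6.03.

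Some of these genes differed more between the first replicates and the rest than between the genotypes. *Ednrb* was at 19.5 and 20.2 in the first replicates and at 12 to 15.5 in the other samples, and *Kit* was at 7.81 and 8.63 against 6.84 to 7.71. *Dct* went the other way, at 3.80 and 4.25 against 4.96 to 6.03. The other 7 genes overlapped between the first replicates and the rest. Over all genes tested, 41.4% had both first replicates above or both below the other samples, so 3 of 10 is not more than the background. *Dct* and *Ednrb* thus stood on opposite sides in the first replicates.

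Other genes of melanosomes and pigmentation, taken from a list of 26 that does not include the 10, did not pass an adjusted p of 0.05 either. Of the 25 tested, 10 had a higher and 15 a lower fitted mean in the mutants, with a median log2 difference of -0.068. At an unadjusted p under 0.05, 2 of the 25 were lower and 0 higher, against 1.47% and 1.01% of all genes. *Hps4*, which encodes a subunit of a complex needed to make melanosomes and other lysosome-related organelles, had FPKM of 14.9, 14.9 and 14.2 in the controls, compared with 12.6, 12.2 and 12.9 in the mutants. Its log2 difference was -0.22 (standard error 0.078, unadjusted p = 0.0231 and adjusted p = 1.0 from limma), and its groups did not overlap. It was past this unadjusted threshold in 15 of 18 alternatives. *Tpcn2*, a cation channel of melanosomes and lysosomes, had FPKM of 2.51, 3.38 and 3.01 in the controls, compared with 2.39, 2.22 and 2.21 in the mutants, a log2 difference of -0.36 (standard error 0.15, unadjusted p = 0.0449 and adjusted p = 1.0 from limma). With the replicate number as a block the unadjusted p of *Tpcn2* was 0.0579, and it was under 0.05 in 8 of 17 alternatives. *Rab27a*, which tethers melanosomes to the actin motor complex, had 4.03, 5.59 and 4.79 in the controls, compared with 3.90, 3.80 and 4.05 in the mutants, with an unadjusted p of 0.0898 in limma. All 3 are also expressed outside pigment cells. *Pmel*, the fibre protein of the melanosome, named here after its values were seen, was at 8.99, 12.3 and 12.8 in the controls, compared with 9.29, 9.74 and 11.9 in the mutants, where the groups overlapped. *Mc1r*, the melanocortin receptor, had the lowest mean of the list and stayed between 0.0453 and 0.144.

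Of 18 regulators and ligands of melanoblasts, 17 were tested, with 7 higher and 10 lower fitted means in the mutants and none past an adjusted p of 0.05. At an unadjusted p under 0.05, *Pax3* was lower, with the values given above, and *Tfe3* was higher, which is 1 of 17 in each direction against 1.47% and 1.01% of all genes. The unadjusted p of *Pax3* in limma was 0.0550 to 0.0942 when control replicate 2 or 3 or mutant replicate 2 or 3 was left out. With Y-linked expression as a covariate, its log2 difference was -0.34. *Tfe3*, an X-linked relative of *Mitf* with broad expression, had FPKM of 15.6, 16.3 and 16.1 in the controls, compared with 19.7, 19.8 and 18.1 in the mutants. Its groups did not overlap, and the log2 difference was 0.26 (standard error 0.078, unadjusted p = 0.0129 and adjusted p = 1.0 from limma). The mutant samples at 19.7 and 19.8 are those with Y-linked expression, and with this expression as a covariate the log2 difference was 0.17. Whether Y-linked expression bears on the level of *Tfe3* was not tested. *Snai2*, a factor that melanoblasts need to survive, was at 23.8, 26.0 and 25.6 in the controls, compared with 24.0, 19.9 and 22 in the mutants (unadjusted p = 0.0715 from limma). Named after their values were seen, *Sox10*, which activates *Mitf*, ranged from 9.12 to 12 in the controls and from 9.61 to 12.4 in the mutants, and *Edn3*, the ligand of EDNRB, was at 7.97, 9.45 and 9.02 in the controls, compared with 9.16, 8.84 and 8.94 in the mutants. Both overlapped between the groups, as did *Mitf*, while *Pax3* did not. *Ece1*, whose product activates endothelins, ranged from 41.0 to 125 within the mutants alone.

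**Figure D4:**
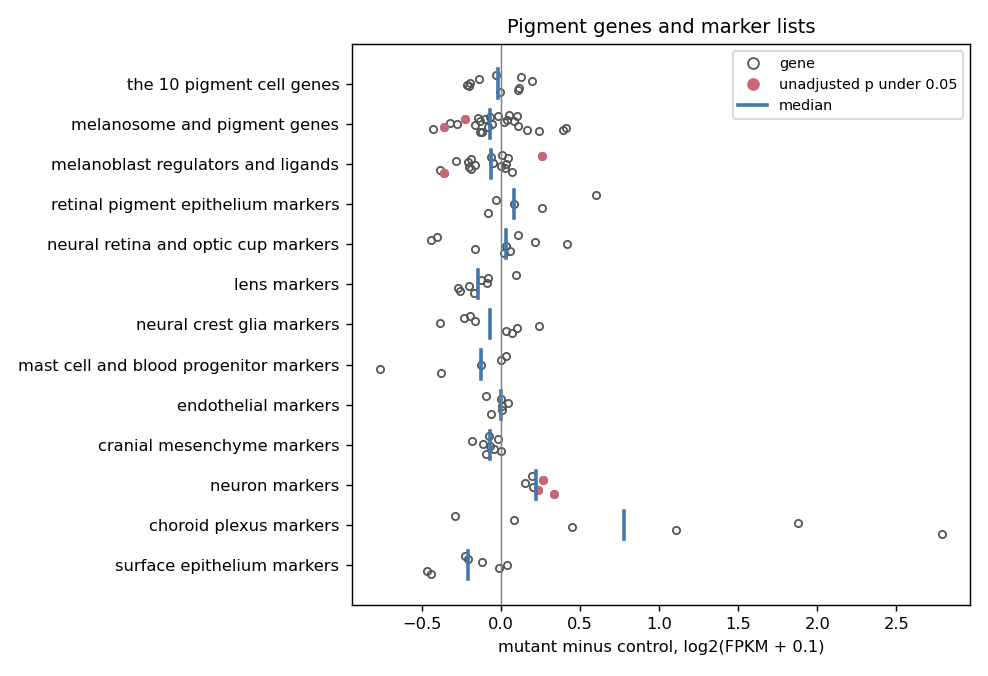
Difference between mutant and control on the log2(FPKM + 0.1) scale for each gene tested in the 10 pigment cell genes and in 12 lists of related genes and cell type markers. Red points had an unadjusted p under 0.05, blue bars give the median of each list, and none of the points had an adjusted p under 0.05. The 10 pigment genes lie around 0, while all 6 neuron markers lie above it.

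Markers of other cells that express these genes were compared in the same samples. The 8 neural crest glia markers, a cell type that shares *Sox10* and *Ednrb* with melanoblasts, summed to 223 to 306 FPKM in controls and 253 to 371 in mutants, mostly from *Fabp7*, and none had an unadjusted p under 0.05. The 6 endothelial markers summed to 80.1 to 110 and 85.5 to 100 in controls and mutants, and the 8 mast cell and blood progenitor markers to 45.0 to 50.7 and 45.4 to 47.3, with *Tpsb2* of mast cells at or near 0 and *Cd34*, which endothelium shares, making up most of the sum. The 7 surface epithelium markers, from the tissue that makes *Kitl*, summed to 121 to 211 in controls and 121 to 168 in mutants. The 6 choroid plexus markers summed to 22.8 to 91.6 and 48.5 to 103. Of them, *Ttr* varied widely, at 56.1, 1.04 and 1.91 in the controls, compared with 27.4, 67.6 and 22.9 in the mutants. None of the genes tested in these 4 lists, nor in those of the mesenchyme, lens, neural retina and retinal pigment epithelium given above, had an unadjusted p under 0.05. The median log2 difference of these lists, 9 with that of the glia, ran from -0.21 for the surface epithelium to 0.78 for the choroid plexus. The summed level of the 6 neuron markers did not overlap between the groups. It was 551 to 643 FPKM in controls and 680 to 775 in mutants, all 6 had higher fitted means in the mutants, and 3 had an unadjusted p under 0.05, against 1.01% of all genes that were higher at this threshold. In 4 of the 6 every mutant value was above every control value, against 3.03% of all genes. *Tubb3*, a neuronal tubulin, was at 392, 322 and 366 in the controls, compared with 402, 498 and 466 in the mutants, and *Dcx* and *Elavl3*, both of young neurons, also had no overlap between the groups. With Y-linked expression as a covariate, where mutant replicate 3 mainly stands for the mutants, the log2 difference was 0.38 for *Tubb3*, 0.27 for *Elavl3* and 0.21 for *Dcx*. The unadjusted p of *Tubb3*, *Elavl3* and *Dcx* in limma was under 0.05 in 13, 10 and 14 of 18 alternatives. Without control replicate 2 it was 0.105, 0.134 and 0.090 in limma. At the adjusted threshold 0 of the 6 neuron markers passed, and their part in the values of *Kit* and *Ednrb* was not tested. Whether the samples held uneven amounts of brain tissue, and whether this bears on the neuron markers, was not tested either.

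Finally, the genes with the most similar pattern over the 6 samples were listed. The 6 genes *Tyr*, *Tyrp1*, *Dct*, *Mlana*, *Slc45a2* and *Oca2* did not vary together, with Pearson's r between pairs of them from -0.57 for *Slc45a2* and *Oca2* to 0.60 for *Tyr* and *Dct*, so their mean stands for no shared pattern. The mean standardised profile of these genes was compared with 14972 genes with a mean FPKM over 0.5. The closest were *Map3k5*, *Ston1*, *Fam129b*, *Armcx6* and *Mov10*, with Pearson's r of 0.992 to 0.996. For single genes, the closest were *Cyp26c1* to *Kit* (r = 0.998), *Smap2* to *Kitl* (r = 0.997), *Gyk* to *Ednrb* (r = 0.997) and *Hibadh* to *Mitf* (r = 0.993). With 6 samples that fall into 2 sets by replicate number, and that many genes compared, such values are a description of these libraries only.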

How the data were processed

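RNA-Seq was performed on poly(A)+ RNA from microdissected tissue of 6 embryos, with stranded paired-end libraries. Reads were mapped by the authors with STAR to GRCm38, and the deposited values are FPKM for 38553 genes in every sample. The submitters' processing notes name FastQC 0.11.4, STAR and Cuffdiff, and the versions of the last 2, the annotation and the step that made the gene table are not given in the sources used here. FPKM are not counts, and the number of fragments behind each value is not given. The paper states an approximate number of reads per sample, from which no fragments per gene were worked out here. Among low values, 16.9% to 31.2% of genes stood at 1 ratio in pairs among replicates 2 and 3, but at most 1.58% where a first replicate was paired with one of these, so whole reads were not recovered, and no interval for counting error is given. Values in the single and combined tables differed in 0 cases.

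Genes with a mean FPKM over 0.1 (17826) were compared on log2(FPKM + 0.1) using limma 3.58.1 in R 4.3.3 with a trend and no covariates, with Benjamini-Hochberg adjustment across all of them. The filter of FPKM over 5, which the methods give for transcripts, would have left 3 of the 10 genes and was used as an alternative. The script was tested on simulated data with differences larger than those of the 10 genes, so that test does not show its power at their size. Single genes were compared by a two-sided exact permutation test in SciPy 1.17.1. Coordinates are from GENCODE M21 on GRCm38, which held 95.0% of the gene identifiers. *Mitf*, *Dct* and *Oca2* each overlap a gene on the opposite strand, and whether counting used strand is not stated, so their values are uncertain in that respect. Replicates are separate embryos.

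The 10 genes, the 12 other lists and the tests were chosen with earlier results of these data known. Besides the 10 genes, *Rbfox2* and *Pax3*, the text names from the lists the genes with the smallest p and with the highest or lowest mean, and says where a gene was chosen after its values were seen. In the lists, *Asip* was not analysed here, and *Lim2* had 2 entries, which entered the summed level of the lens genes but no count of tests.

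Both groups are numbered 1 to 3. Across genes, the deviations of samples from their group mean correlated at 0.32, 0.14 and 0.17 for the samples numbered 1, 2 and 3, and at -0.28 to 0.16 for samples with different numbers, the highest of these for control 3 with mutant 2. The same-numbered pairs each passed the criterion of 0.1 for a paired fit, although only the first clearly exceeded the others. No litter or day is stated, and the main fit has no block, so the replicate block is an alternative. The alternatives were other pseudocounts, filters and scalings, no trend, the replicate block, a Y-linked covariate, a term for the first replicates, replicates 2 and 3 only, and each sample left out.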

Additional observations from a re-analysis of the deposited data

How the results depend on the processing

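Over 18 alternatives, the 10 pigment genes gave 169 values, of which 160 kept the sign of the difference and 9 changed it, and 0 had an unadjusted p under 0.05. *Tyr*, *Tyrp1*, *Dct*, *Mitf* and *Kit* kept their sign in each alternative in which they were tested. Quantile normalization turned *Slc45a2* to 0.010 and *Ednrb* to 0.012, and the Y-linked covariate turned *Kitl* to -0.088 and moved *Mlana* to -0.78, *Oca2* to 0.55 and *Ednrb* to -0.39. With 1 sample left out, the log2 difference ran from -0.48 to 0.17 for *Mlana*, -0.15 to 0.086 for *Slc45a2*, -0.073 to 0.29 for *Oca2* and -0.20 to 0.18 for *Ednrb*. Leaving out mutant replicate 3 reversed all 4. *Rbfox2* stayed between -0.85 and -0.72 and *Pax3* between -0.52 and -0.27, with no adjusted p under 0.05. *Hps4*, *Tpcn2*, *Rab27a*, *Tfe3*, *Snai2*, *Tubb3*, *Elavl3* and *Dcx* kept their sign in each alternative. The fit with the Y-linked covariate rests mainly on mutant replicate 3 among the mutants, so it cannot show whether their differences hold in the other mutants.

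Over all genes, 5 had an adjusted p under 0.05 with the Y-linked covariate and 0 to 7 with 1 sample left out, the highest without mutant replicate 3. The count at an unadjusted p under 0.05 was 289 with a mean FPKM over 1 and 167 with the filter of FPKM over 5 and a pseudocount of 1, where fewer genes were tested, 1054 with the replicate block, 1062 with a term for the first replicates, 1641 in replicates 2 and 3 only, and 264 to 1231 with 1 sample left out, without control replicates 2 and 1. The replicate block took *Tpcn2* to an unadjusted p of 0.0579 and changed no call of the 10 genes. The causes of these changes in counts were not tested. Since fragments per gene are not given, the precision of genes under 1 FPKM rests on 3 samples a group.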
